A study of Bos taurus with 14 samples.

Results

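Transcripts of the proteasome were followed in Holstein cattle (Bos taurus), in liver tissue and in neutrophils from blood. The genes were taken from the array's own annotation: every probe that is not a control and whose gene name, or gene symbol in brackets in its description, is PSMA, PSMB, PSMC, PSMD, PSME, PSMF or PSMG followed by a number. This gave 35 genes with 1 probe each, among 15011 distinct probes, of which 7119 could be given a single RefSeq symbol, for 6922 genes in all. They comprise 7 alpha subunits, 5 standard beta subunits, 3 immunoproteasome subunits, 6 ATPases, 9 non-ATPase subunits of the regulatory particle, 2 subunits of an activator, 1 inhibitor and 2 assembly factors. Of these, 24 were found by gene name and 11 by description alone, and all 35 matched the same symbol in NCBI RefSeq. PSMG1 to PSMG4, PSME3 and PSME4 were not analysed here.

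The animals were heifers or steers that received β-cryptoxanthin, a carotenoid that can be cleaved to vitamin A, by mouth at 0.2 mg per kg body weight on day 0. Liver came from 3 cattle, numbered 58, 61 and 66, and neutrophils from 4 others, numbered 25, 26, 32 and 34. Each animal was sampled on day 0 and day 7, which gave 4 groups and 14 single-colour arrays. All animals analysed here received it, so an effect of the carotenoid and one of the 7 days by themselves cannot be told apart.

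The proteasome degrades proteins that carry ubiquitin. Its core is a stack of rings of alpha and beta subunits, in which PSMB5, PSMB6 and PSMB7 hold the standard proteolytic sites, and a regulatory particle of ATPase and non-ATPase subunits recognises, unfolds and feeds in the substrate. Interferon gamma induces PSMB8, PSMB9 and PSMB10, which take the places of PSMB5, PSMB6 and PSMB7 in the immunoproteasome, and the activator subunits PSME1 and PSME2. This form is abundant in blood leukocytes and supplies peptides for MHC class I molecules, whereas hepatocytes at rest mostly hold the standard form.

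Each value rests on 1 oligonucleotide of 60 bases, and 5 of them are shown as examples: 2 of the 3 immunoproteasome subunits, a pair of ATPases and the lid subunit PSMD3. The alpha and standard beta subunits are not among them. They are given as the array files list them, 5′ to 3′, and each has at least 1 reading frame free of stop codons, as had 26 of the 35 member probes (74.3%) against 79.6% of all probes.
PSMB8: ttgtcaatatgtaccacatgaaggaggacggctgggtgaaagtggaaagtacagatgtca
PSMB10: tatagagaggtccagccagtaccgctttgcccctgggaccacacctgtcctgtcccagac
PSMC2: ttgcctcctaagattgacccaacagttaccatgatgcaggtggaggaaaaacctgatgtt
PSMC3: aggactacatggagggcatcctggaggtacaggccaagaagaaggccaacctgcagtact
PSMD3: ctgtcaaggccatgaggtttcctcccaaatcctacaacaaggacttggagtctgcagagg

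The GC content of the member probes was 41.7% in the median (range 35.0% to 60.0%) against 43.3% over all probes. The letters AATAAA, the commonest polyadenylation signal, occurred on the probe strand in 7 member probes (20.0%) and in 11.3% of all probes. Genome positions of the probes were not used here.

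The share of spots well above background ran from 62.7% to 76.7% on the liver arrays and from 57.1% to 71.6% on the neutrophil arrays. The neutrophil array of animal 34 on day 7 was the dimmest: its processed signals had a median of 48.2, and those of the other 13 arrays 100.2 to 204.2. All hepatocyte markers with a probe (13 of 13) were detected on every liver array and 2 to 4 of them on each neutrophil array, and all 10 neutrophil markers on every neutrophil array and 8 to 10 of them on each liver array. The summed level of the neutrophil markers, on a linear scale where the array's 75th percentile is 1, lay between 667 and 1400 on the neutrophil arrays and between 4.34 and 12.1 on the liver arrays. Each tissue had a slide of its own, so tissue and slide cannot be told apart. On both slides the first row of arrays held day 0 and the second held day 7, so day and array position cannot be told apart either. Every member was well above background on all 14 arrays except PSMB1, which was dim in both tissues. Levels below are log2 processed signals minus the array's 75th percentile, so that a level of 0 is the signal of that percentile.

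Liver against neutrophils on day 0 was compared first. The 3 immunoproteasome subunits and both activator subunits were lower in liver, and 4 of the 5 standard beta subunits and 4 of the 6 ATPases were higher there, with none of either group lower. Among those beta subunits, PSMB1 was tested only through the liver arrays, the group where it was higher. Over all members, 27 of 35 differed at an adjusted p under 0.05 by limma, 15 higher in liver and 12 lower. Differences of this kind were the rule on these arrays: 83.1% of the 11498 probes tested passed, 39.7% higher in liver and 43.4% lower. The median size of the difference was 0.97 over the members and 1.84 over all probes on the log2 scale, and the groups did not overlap for 28 of 35 members (80.0%) against 82.5% of all probes. In whole tissue and in cell preparations, fewer cells of a type and less RNA per cell cannot be told apart.

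PSMB8, the inducible counterpart of PSMB5, had log2 levels of -1.89, -1.42 and -1.78 in the livers of animals 58, 61 and 66 and of 2.41, 2.57, 2.41 and 2.49 in the neutrophils of animals 25, 26, 32 and 34. Every neutrophil sample lay above every liver sample by a wide gap. The difference, liver minus neutrophils, was -4.16 ± 0.17 (SE), a 17.9-fold lower signal in liver (adjusted p = 1.07e-07), the largest in size of any member. The PSMB8 probe sits in spot row 15 of the array, and the median difference of all 901 probes tested in rows 1 to 16 was -1. With the trend along the spot rows removed the difference was -3.2 (adjusted p = 3.35e-07), still called, so the fold depends on that step. Relative to the median of all probes, the PSMB8 difference was -4.05 before and -3.67 after.

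PSMB9, the inducible counterpart of PSMB6, gave 1.39, 1.2 and 1.44 in liver and 4.73, 4.63, 4.87 and 4.94 in neutrophils. The groups again lay far apart, with -3.45 ± 0.16, or 10.9-fold lower in liver (adjusted p = 1.98e-07). PSMB10, the inducible counterpart of PSMB7, gave 1.05, 0.87 and -0.43 in liver and 1.58, 1.01, 1.51 and 1.78 in neutrophils. Here the groups overlapped, since liver animal 58 lay above neutrophil animal 26, and liver animal 66 was the lowest. The difference of -0.97 ± 0.37 had an adjusted p of 0.037, which was 0.0945 without animal 66, between 0.0714 and 0.0844 without neutrophil animal 25, 32 or 34, 0.0896 and 0.106 under the quantile normalizations and 0.186 with the row trend removed. Removing it moved the median of all probes from -0.12 to 0.47, and relative to that median the PSMB10 difference was -0.86 before and -0.99 after.

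The standard counterparts ran the other way. PSMB5, which carries the chymotrypsin-like activity, had log2 levels of 3.08, 2.75 and 3.05 in liver and of 0.14, -0.33, 0.23 and 0.07 in neutrophils. All 3 livers lay above all 4 neutrophil samples, and the difference of 2.93 ± 0.19 was a 7.63-fold higher signal in liver (adjusted p = 1.55e-06). PSMB6, with the caspase-like activity, gave 2.3, 2.25 and 2.5 in liver and 0.82, 0.98, 0.92 and 0.98 in neutrophils, a difference of 1.43 ± 0.15 (adjusted p = 2.65e-05) with no overlap.

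PSMB7 itself has no member probe, but a probe described as similar to the beta type 7 subunit, which the naming rule does not take in, gave 2.37, 2.08 and 2.29 in liver and 0.92, 0.81, 0.89 and 1.2 in neutrophils. Its difference was 1.29 ± 0.16 (adjusted p = 0.000106), with all livers above all neutrophil samples. For each of the 3 catalytic positions, the standard subunit was thus called higher in liver and its inducible counterpart lower, with the third inducible one, PSMB10, the least certain. Of the remaining beta subunits, PSMB2 was higher in liver by 0.97 ± 0.16 (adjusted p = 0.000513) and PSMB4 had 0.07 ± 0.16 with overlapping groups. PSMB1 had 0.57 ± 0.21 (adjusted p = 0.033) at levels from -5.32 to -4.1, near the limit of detection. It passed the filter through the liver arrays alone, and its difference was 0.12 and 0.36 under the quantile normalizations. A probe described as similar to beta type 3 is also outside the naming rule. It gave 2.84, 2.49 and 2.69 in liver and 2.96, 2.94, 2.91 and 3.19 in neutrophils. Its difference of -0.33 ± 0.16 (adjusted p = 0.0884) was not called, with all neutrophil samples above all livers.

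**Figure D1:**
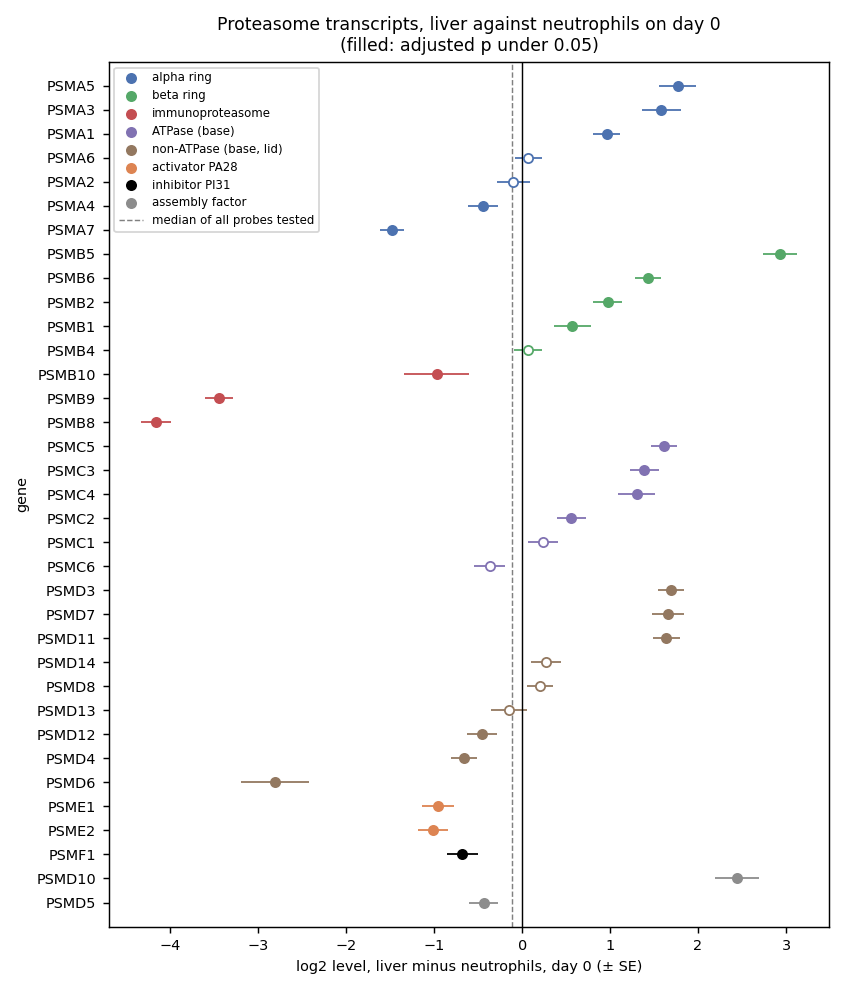
Difference in log2 level between liver and neutrophils on day 0 (x axis, bars are standard errors of the limma fit) for each of the 35 genes (y axis), ordered and coloured by role in the complex. Filled points passed an adjusted p of 0.05. The red immunoproteasome points lie left of 0, down to -4.16 for PSMB8, and the green standard beta points at or right of 0, up to 2.93 for PSMB5.

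The activator genes PSME1 and PSME2, whose products form a ring that caps the core, were both lower in liver. PSME1 gave 2.48, 2.42 and 2.57 in liver and 3.27, 3.47, 3.25 and 3.82 in neutrophils, and PSME2 gave 3.15, 2.98 and 3.26 against 3.98, 4.27, 4.0 and 4.33. Neither gene's groups overlapped. The differences were -0.96 ± 0.18 (adjusted p = 0.00121) and -1.01 ± 0.17 (adjusted p = 0.000509), with adjusted p of 0.063 and 0.0645 once the row trend was removed. Relative to the median of all probes, the difference was -0.85 before and -0.88 after it for PSME1, and -0.9 and -0.88 for PSME2.

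PSMF1, an inhibitor of the core particle, had levels of 0.27, -0.02 and -0.13 in liver and 0.73, 0.88, 0.8 and 0.47 in neutrophils. All 4 neutrophil samples were above the livers on day 0, by -0.68 ± 0.18 as liver minus neutrophils (adjusted p = 0.00654), which changed to -0.13 (adjusted p = 0.587) when the row trend was taken out. Relative to the median of all probes it was -0.56 before that step and -0.6 after it.

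Of the ATPases, which form the ring that unfolds the substrate, PSMC2, PSMC3, PSMC4 and PSMC5 were higher in liver. PSMC5 gave 4.15, 4.01 and 4.15 in liver and 2.44, 2.36, 2.55 and 2.64 in neutrophils, a difference of 1.61 ± 0.15 (adjusted p = 1.33e-05). PSMC3 gave 2.0, 1.96 and 2.13 against 0.52, 0.9, 0.49 and 0.62, a difference of 1.39 ± 0.16 (adjusted p = 5.93e-05). No liver and neutrophil sample overlapped for either gene. PSMC4 and PSMC2 had differences of 1.3 and 0.56, and PSMC1 and PSMC6, at 0.24 and -0.37, did not pass. The PSMC6 probe sits in spot row 12, in the band of rows 1 to 16 with a median of -1. With the row trend removed PSMC6 was at 0.71. Relative to the median of all probes it was -0.26 before and 0.24 after.

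The non-ATPase subunits were split, with 3 higher in liver, 3 lower and 3 not called. PSMD3, a structural subunit of the lid, gave 0.63, 0.66 and 0.76 in liver and -0.84, -0.97, -1.16 and -1.07 in neutrophils, a difference of 1.69 ± 0.15 (adjusted p = 1.06e-05). PSMD7, the partner of the deubiquitinase PSMD14, gave 2.54, 2.66 and 2.78 against 1.01, 0.66, 1.18 and 1.15 (1.66 ± 0.18, adjusted p = 3.64e-05). PSMD11, another lid subunit, was higher by 1.64. In all 3 the livers lay wholly above the neutrophils.

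PSMD6, also of the lid, went the other way, with -1.75, -2.44 and -1.42 in liver and 1.81, 0.86, 0.19 and 0.92 in neutrophils. The groups did not overlap, but both were spread widely, and the difference was -2.81 ± 0.39 (7.02-fold lower in liver, adjusted p = 0.000186). PSMD4, a ubiquitin receptor, was lower in liver by -0.66 ± 0.15, and PSMD12 by -0.46 ± 0.17 (adjusted p = 0.0301). With the row trend removed PSMD4 was at -0.21 and PSMD12 at 0.11. Relative to the median of all probes, PSMD4 was at -0.55 before and -0.68 after, and PSMD12 at -0.34 and -0.36. A further PSMD12 probe outside the naming rule gave -0.12 ± 0.14 (adjusted p = 0.453), so the probes of this gene disagree on the call. PSMD14, PSMD8 and PSMD13 gave 0.27, 0.2 and -0.15, none of them called.

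The alpha subunits, which gate the entry to the core, were split as well. PSMA5 gave 3.13, 2.97 and 3.16 in liver and 1.28, 0.86, 1.52 and 1.62 in neutrophils, a difference of 1.77 ± 0.21 (adjusted p = 6.94e-05). PSMA7 gave -0.54, -0.4 and -0.5 against 1.01, 1.1, 1.03 and 0.85, a difference of -1.48 ± 0.14 (adjusted p = 2e-05). Both pairs of groups were fully apart, in opposite directions. The PSMA7 probe sits in spot row 9, in the band of rows 1 to 16 with a median of -1, against -0.2 to 0.04 in the other row bands. With the row trend removed PSMA7 was at -0.26 (adjusted p = 0.255), and relative to the median of all probes it was -1.36 before and -0.73 after. PSMA3 and PSMA1 were higher in liver by 1.58 and 0.96 and PSMA4 lower by -0.45 (adjusted p = 0.037). PSMA4 was at 0.09 with the row trend removed and at -0.11 under both quantile normalizations. Relative to the median of all probes, its difference was -0.33 before the trend was removed and -0.38 after. PSMA2 and PSMA6 had differences of -0.1 and 0.07. A probe described as similar to alpha type 6, which shares a run of 40 bases with the PSMA6 probe, gave -0.19 ± 0.16 (adjusted p = 0.287), also not called.

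PSMD10 (gankyrin), a chaperone that helps to assemble the ATPase base, had levels of -0.29, -0.12 and -0.03 in liver and -2.39, -3.25, -2.31 and -2.4 in neutrophils. All livers were higher, by 2.44 ± 0.25 (5.44-fold, adjusted p = 2.82e-05). The other base chaperone among the members, PSMD5, was lower in liver by -0.44 ± 0.17 (adjusted p = 0.0383). With the row trend removed PSMD5 was at 0.23. Relative to the median of all probes it was -0.33 before and -0.25 after. A probe outside the rule described as similar to PSMD9, also a base chaperone, was higher by 2.4 ± 0.26 (adjusted p = 3.6e-05).

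The same comparison on the day 7 arrays, which come from the same animals and are no independent test, called 19 members, 13 higher in liver and 6 lower, where 69% of all 10208 probes tested were called, 34% higher and 35.1% lower. PSMB8 then gave -4.09, PSMB9 -3.8, PSMB10 -1.36, PSMB5 3.12 and PSMB6 1.36, all called. PSMF1 (-0.3, adjusted p = 0.844) and PSMA7 (-0.76, adjusted p = 0.0598) were not. With the row trend removed from the day 0 arrays, 21 members were called higher in liver and 3 lower in place of 15 and 12. Over all probes that step left 83% called and moved the calls from 39.7% to 48.5% higher and from 43.4% to 34.6% lower. With the middle spot rows fitted alone, without 40 rows at each end, which hold 22 of the members, 10 were called higher and 7 lower, and these were all of the called members that lie in those rows. Of all probes in them 82.9% were called, 40.9% higher and 42% lower.

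Other genes of the pathway give the surroundings of these differences, in a comparison where 83.1% of all probes were called, 39.7% higher in liver and 43.4% lower. Of 10 measured partners and regulators of the proteasome, 5 were higher in liver and 5 lower. The deubiquitinase USP14 (2.74 ± 0.22) and the regulatory particle chaperone PAAF1 (2.44 ± 0.17) were among the higher. The interferon-inducible NUB1 (-3.08 ± 0.62) and the transcription factor NFE2L2 (-3.39 ± 0.16) were among the lower. The NFE2L2 probe sits in spot row 5, in the band of rows 1 to 16 with a median of -1. Of 24 ubiquitin conjugation genes 4 were higher and 15 lower, led by the conjugating enzymes UBE2H (-4.47 ± 0.17) and UBE2B (-4.42 ± 0.18), with a median of -0.59 against -0.12 over all probes. Of 9 genes of MHC class I peptide loading 5 were lower in liver, among them the peptide trimming enzyme ERAP2 (-4.38 ± 0.23), the peptide transporter TAP2 (-4.89 ± 0.36) and the light chain B2M (-2.45 ± 0.15), and 3 were higher. Of 11 interferon-gamma response genes 8 were lower, with the transcription factor IRF1 at -5.08 ± 0.16, and 2 higher, CXCL10 (3.15 ± 0.45) and ICAM1 (3.06 ± 0.16).

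In liver, day 7 against day 0, no member passed the threshold in either direction by limma with the animal as a block. The background was 3.98% of 10935 probes tested, 2.67% higher on day 7 and 1.31% lower. That background moved with position on the array. With the row trend removed 30 of the 10935 probes were called, and in the middle spot rows alone 0 of 6456. No member reached an unadjusted p under 0.05 either, against 17.9% of all probes, and the smallest adjusted p was 0.405. The changes ran from -0.16 for PSMD4 to 0.27 for PSMC6, and their median was 0.08 against -0.04 over all probes. Of the 35, 28 were above 0 (80% against 42.9% of all probes). Within animals 58, 61 and 66, 10, 29 and 26 of the 35 were above 0. The groups did not overlap for 2 of 35 members (5.7%) against 15.3% of all probes.

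The widest bounds of the 95% intervals over the members were -0.53 for PSMB1 and 0.69 for PSMC6, which leaves room for changes of that size. With the row trend removed, the largest move was that of PSMA7, from 0.21 to -0.56. PSMB5 gave 3.08, 2.75 and 3.05 on day 0 and 3.02, 3.29 and 3.25 on day 7 in animals 58, 61 and 66, a change of 0.23 ± 0.15 (adjusted p = 0.513). It was higher on day 7 in 2 of the 3 animals. PSMB8 gave -1.89, -1.42 and -1.78 on day 0 and -1.96, -1.28 and -1.44 on day 7 (0.13 ± 0.12), and PSMB9 gave 1.39, 1.2 and 1.44 and then 1.29, 1.51 and 1.27 (0.01 ± 0.14).

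PSMB6 gave 2.3, 2.25 and 2.5 on day 0 and 2.23, 2.32 and 2.47 on day 7 (-0.01 ± 0.1). PSMB10 gave 1.05, 0.87 and -0.43 and then 0.65, 0.73 and -0.21 (-0.11 ± 0.15), with animal 66 the lowest on both days. Of the activators, PSME1 had 2.48, 2.42 and 2.57 on day 0 and 2.5, 2.52 and 2.53 on day 7, and PSME2 had 3.15, 2.98 and 3.26 and then 3.11, 3.11 and 3.28. For PSMF1 the levels were 0.27, -0.02 and -0.13, then -0.16, 0.07 and -0.15 (-0.12 ± 0.14). Days overlapped for all of these genes.

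At the ends of the range, PSMC6 gave -1.08, -1.69 and -1.24 on day 0 and -1.13, -1.06 and -1.01 on day 7 (0.27 ± 0.16), a change that was -0.32 once the row trend was removed. PSMA1 gave 2.84, 2.94 and 3.09, then 2.86, 3.31 and 3.41 (0.23 ± 0.12). PSMD4 gave -2.28, -2.38 and -2.4, then -2.62, -2.42 and -2.52 (-0.16 ± 0.11), and it was lower in all 3 animals without overlap. PSMD6 gave -1.75, -2.44 and -1.42, then -1.83, -2.37 and -1.73 (-0.11 ± 0.12). PSMC5 was the other gene without overlap, with 4.15, 4.01 and 4.15 on day 0 and 4.17, 4.25 and 4.35 on day 7 (0.15 ± 0.11, adjusted p = 0.54). The median change over the members was -0.05 in animal 58, 0.17 in animal 61 and 0.13 in animal 66, and no member had a change of more than 1 on the log2 scale in any of them, against 5.3% to 8.1% of all probes.

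Among the pathway lists in liver, 1 of the 10 partners and regulators rose: NFE2L2, a transcription factor that drives antioxidant and proteasome genes, was higher by 1.28 ± 0.14 (adjusted p = 0.0228), in all 3 animals (0.99, 1.31 and 1.55). Its probe lies in spot row 5, where the median change of all 820 probes tested in rows 1 to 16 was 0.53, and the part of position in this result was not tested. None of the 24 ubiquitin conjugation genes, 9 peptide loading genes or 9 tested interferon-gamma response genes passed, by limma, with 3, 2 and 4 at an unadjusted p under 0.05. On day 0 the summed level of 10 skeletal muscle markers in the same samples ranged from 0.293 to 0.833, and on day 7 from 5.1 to 19.7, on a linear scale where the array's 75th percentile is 1. Their part in the members' values was not tested.

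**Figure D2:**
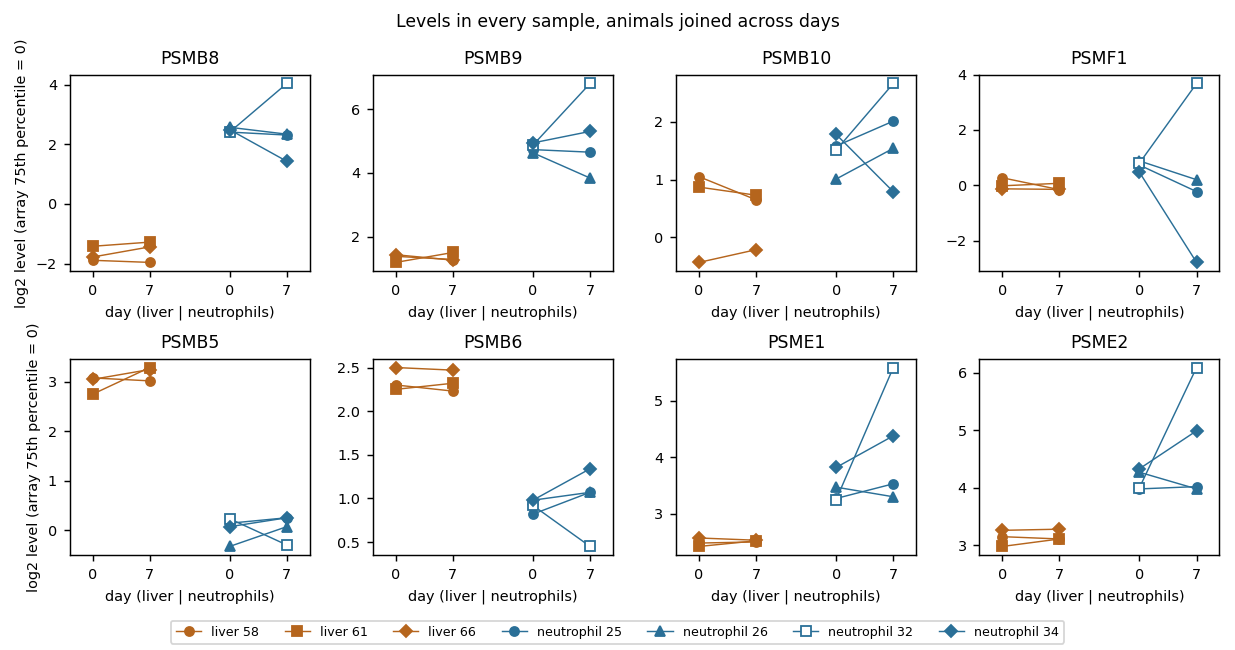
Log2 level (y axis, the array's 75th percentile is 0) of 8 genes on day 0 and day 7 (x axis) in liver (brown) and neutrophils (blue), with each animal's days joined by a line. In liver the lines run nearly flat, and in neutrophils animal 32 (open squares) reaches 4.04 for PSMB8, 6.8 for PSMB9 and 3.68 for PSMF1 on day 7.

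In neutrophils, day 7 against day 0, no member of the 34 tested passed (PSMB1 was not tested), where the background was 0% of 9450 probes by limma and 1268 probes had an unadjusted p under 0.05. The members included 3 at that level, 8.8% against 13.4% of all probes, and their smallest adjusted p was 0.335. Changes ran from -0.84 for PSMD3 to 0.85 for PSMD10 with a median of 0.22 against -0.07 over all probes. Of the 34, 24 were above 0 (70.6% against 44.6% of all probes). The members' median was 0.04 without animal 32, 0.04 with array weights and 0.12 with the row trend removed. The groups did not overlap for 3 members (8.8%) against 9.39% of all probes. The 95% intervals were wide, reaching from -2.52 for PSMF1 to 1.81 for PSMA2. With array weights, which gave the arrays of animal 25 weights of 8.84 and 8.88 and those of animal 34 a weight of 0.242, 6 members were called higher and 3 lower, where 45.6% of all probes were called, 20.3% higher and 25.3% lower.

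The 3 members at an unadjusted p under 0.05 were PSMD10, PSMA5 and PSMC1. PSMD10 gave -2.39, -3.25, -2.31 and -2.4 on day 0 and -1.7, -1.84, -2.31 and -1.11 on day 7 in animals 25, 26, 32 and 34 (0.85 ± 0.31, adjusted p = 0.335), higher in 3 of 4 animals. PSMA5 gave 1.28, 0.86, 1.52 and 1.62, then 1.9, 1.79, 1.55 and 3.06 (0.75 ± 0.3, adjusted p = 0.354), higher in all 4. PSMC1 gave 1.67, 1.63, 1.34 and 1.26, then 1.3, 1.27, 0.8 and -0.09 (-0.66 ± 0.27, adjusted p = 0.366), lower in all 4. In each of these genes animal 34 was at the far end on day 7.

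The 3 members without overlap were PSMA7, PSMD4 and PSMD8, each lower on day 7 in all 4 animals. PSMA7 gave 1.01, 1.1, 1.03 and 0.85, then 0.76, 0.78, 0.62 and -0.17 (-0.5 ± 0.25, adjusted p = 0.422). PSMD4 gave -1.66, -1.57, -1.92 and -1.6, then -2.12, -1.92, -2.03 and -2.56 (-0.47 ± 0.26, adjusted p = 0.441). PSMD8 gave 1.45, 1.66, 1.42 and 1.35, then 1.32, 1.01, 1.1 and 1.32 (-0.28 ± 0.25, adjusted p = 0.602). PSMD8 was higher on day 7 in all 3 livers, from 1.61, 1.62 and 1.79 to 1.67, 1.84 and 1.85, but the difference between the tissues' changes was 0.4 ± 0.26 (adjusted p = 0.56).

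**Figure D3:**
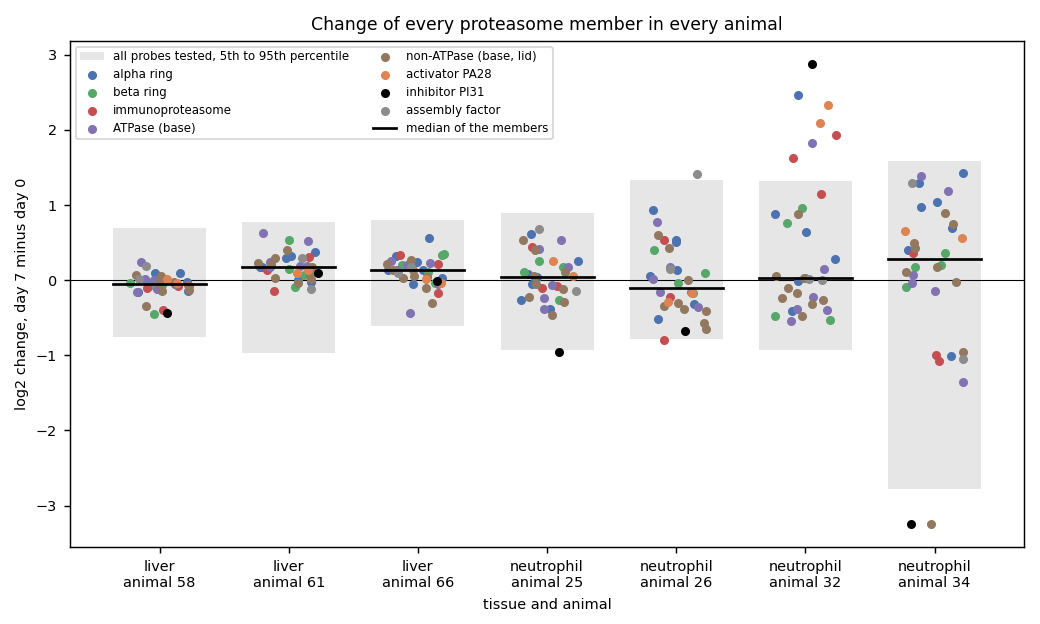
Log2 change from day 0 to day 7 (y axis) of every tested member in each of the 7 animals (x axis), coloured by role, with the median of the members as a black bar and the 5th to 95th percentile of all probes tested as a grey band. The liver points stay within 1 of 0. In neutrophil animal 32 the activator, immunoproteasome and inhibitor points reach from 1.15 to 2.88, and in animal 34 the grey band itself runs from -2.78 to 1.58.

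The neutrophil animals differed in which members moved. In animal 32, 8 of 34 members had a change above 1 on the log2 scale between the pair of arrays, against 9.4% of all probes: PSMF1 at 2.88, PSMA2 at 2.47, PSME1 at 2.33, PSME2 at 2.09, PSMB9 at 1.93, PSMC3 at 1.82, PSMB8 at 1.63 and PSMB10 at 1.15. They include all 3 immunoproteasome and both activator genes, and no member had a change below -1. The median over all members in this animal was 0.03, and 19 of the 34 changes were above 0. These are changes within 1 animal, with no replicate check.

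In the other animals the changes of the immunoproteasome genes ran from -1.07, for PSMB8 in animal 34, to 0.53, for PSMB10 in animal 26. PSMB8 gave 2.41, 2.57, 2.41 and 2.49 on day 0 and 2.31, 2.34, 4.04 and 1.43 on day 7, and PSMB9 gave 4.73, 4.63, 4.87 and 4.94, then 4.65, 3.84, 6.8 and 5.3. In both, animal 32 was alone at the top on day 7. PSMB10 gave 1.58, 1.01, 1.51 and 1.78, then 2.01, 1.54, 2.66 and 0.79. The group changes were 0.06 ± 0.43, 0.36 ± 0.44 and 0.28 ± 0.37, and without animal 32 they were -0.47, -0.17 and -0.01.

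PSME1 gave 3.27, 3.47, 3.25 and 3.82 on day 0 and 3.53, 3.3, 5.59 and 4.38 on day 7 (0.75 ± 0.42, adjusted p = 0.452). PSME2 gave 3.98, 4.27, 4.0 and 4.33, then 4.02, 3.98, 6.09 and 4.99 (0.63 ± 0.41, adjusted p = 0.5). Without animal 32 these changes were 0.22 and 0.14. Animal 32 was again the highest on day 7, with animal 34 next. PSMF1 gave 0.73, 0.88, 0.8 and 0.47, then -0.23, 0.2, 3.68 and -2.79 (-0.5 ± 0.86, adjusted p = 0.797), so animals 32 and 34 lay at opposite ends, with changes of 2.88 and -3.25.

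Of the standard catalytic subunits, PSMB5 and PSMB6 had negative changes in animal 32. PSMB5 gave 0.14, -0.33, 0.23 and 0.07 on day 0 and 0.25, 0.07, -0.3 and 0.25 on day 7 (0.04 ± 0.26), and PSMB6 gave 0.82, 0.98, 0.92 and 0.98, then 1.07, 1.07, 0.45 and 1.34 (0.06 ± 0.26). For both genes animal 32 was the lowest of the 4 on day 7 and the other animals were above their day 0 level. The probe similar to PSMB7 had 0.92, 0.81, 0.89 and 1.2 on day 0 and 0.85, 1.02, 2.41 and 0.55 on day 7, with animal 32 the highest.

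Genes of the interferon-gamma response, a list that holds no proteasome gene, were read in the same animals. In animal 32 all 11 had a positive change with a median of 1.3, with the chemokine CXCL10 at 7.18, and the guanylate-binding proteins GBP5 and GBP4 at 5.69 and 5.39. In animals 25, 26 and 34 the medians were -0.39, -0.25 and -0.95. The 9 peptide loading genes had a median change of 0.61 in animal 32, with ERAP2 at 1.6 and TAP2 at 1.47, and of -0.24, -0.38 and -0.45 in the other animals. Over all 4 animals none of the 11 interferon and none of the 9 loading genes passed by limma, with 1 of each at an unadjusted p under 0.05. The 10 partners and regulators had a median change of -0.1 in animal 32, with NUB1 at 1.59.

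**Figure D4:**
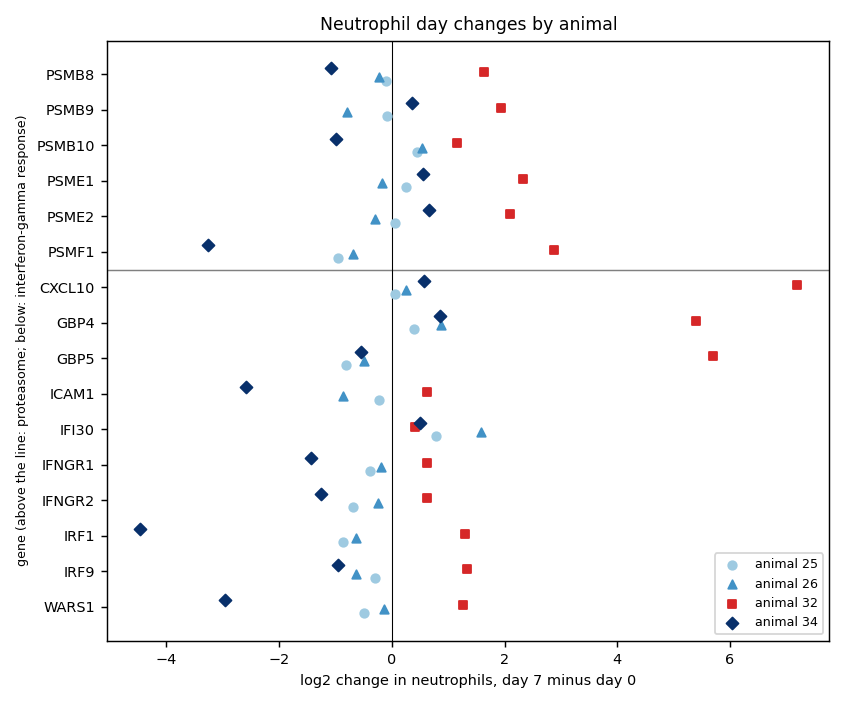
Log2 change in neutrophils from day 0 to day 7 (x axis) for 6 proteasome genes and 10 of the 11 interferon-gamma response genes (y axis), with 1 symbol per animal. Animal 32 (red squares) lies to the right of the other animals for all genes shown except IFI30, up to 7.18 for CXCL10.

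Markers of other blood cells were compared in the same samples. On day 0 the summed level of 11 T and NK cell markers ranged from 27.1 to 54.6, and on day 7 from 45.0 to 133, and that of 4 B cell markers 3.28 to 6.43 and 7.44 to 12.4. The T and NK list had a median change of 0.49 in animal 32, against 0.68, 1.22 and 0.53 in animals 25, 26 and 34, and the B cell list one of 0.96, against 0.94, 1.39 and 0.34. The 10 neutrophil markers had a median change of 0.7 in animal 32, against -0.42, -0.36 and 0.11. Some lists with few tested genes were above 0 in animal 32 and below 0 in the other 3 animals. These were 1 platelet marker (0.57) and, by median, 2 erythroid (0.88), 3 endothelium (0.87) and 3 hepatocyte markers (0.14). Others were not: 2 dendritic and antigen presenting markers had a median of 0.49 in animal 32, against 0.27, 0.38 and -1.94. The 5 tested monocyte and macrophage markers had a median of 0.11, against 0.11, 0.46 and -0.7. None of the T, NK and B cell markers passed by limma (5 and 2 at an unadjusted p under 0.05), and the part of all these lists in the members' values was not tested.

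Animal 34 showed the widest spread of all probes. On its dim day 7 array 12 of 34 members had a change of more than 1 in either direction, against 40.4% of all probes, from PSMF1 at -3.25 and PSMD3 at -3.24 to PSMC6 at 1.39 and PSMA5 at 1.43. PSMD3 had levels of -0.84, -0.97, -1.16 and -1.07 on day 0 and -0.44, -1.27, -1.4 and -4.31 on day 7 (-0.84 ± 0.58), and the group change was -0.05 without animal 34. No member had a change of more than 1 in animal 25 (6.7% of all probes), and PSMD10 alone did in animal 26 (12.6%). The standard deviation between animals had a median over the members of 0.18 on day 0 and 0.52 on day 7 in neutrophils, and of 0.13 on both days in liver. Over all probes these were 0.25, 0.56, 0.23 and 0.19.

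Whether the day change differed between the tissues was tested in 1 model over all arrays. No member of 34 passed by limma, against 1.17% of 8841 probes (10 probes with the row trend removed, and 0 of 5168 in the middle spot rows). Of the members, 2 were at an unadjusted p under 0.05, with a smallest adjusted p of 0.342. These were PSMA7, with 0.71 ± 0.3 as liver minus neutrophils (0.05 ± 0.36 with the row trend removed, where the 689 probes tested in rows 1 to 16 had a median of 0.63 before that step), and PSMC1, with 0.76 ± 0.32 (adjusted p = 0.343). At the other end PSMD10 had -0.79 ± 0.38 (95% interval -1.65 to 0.07) and PSME1 -0.72 ± 0.55 (-1.97 to 0.53). With array weights, which had not converged, 2 members were called higher and 2 lower, where 33.6% of all probes were called, 16.7% higher and 16.9% lower. The median over the members was -0.15 against 0.03 over all probes, with 14 of 34 above 0 (41.2% against 51.8% of all probes). For the immunoproteasome genes the differences ran from -0.39 for PSMB10 to 0.08 for PSMB8, with 95% intervals of -1.49 to 0.71 and -1.21 to 1.37.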

How the data were processed

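Total RNA of liver and neutrophils was extracted with Trizol and labelled with Cy3 by linear amplification, per the labels. Spot intensities were made with Agilent Feature Extraction 9.5.1.1, which subtracted background and a spatial trend, per the file headers (9.5 per the submitters' processing notes). The deposited files also hold mean spot and background intensities, flags and spot positions. The authors' deposited log2 values equal log2 of the processed signals minus a constant that lies -0.013 to -0.004 from each array's 75th percentile (correlation 1.0, column medians -3.55 to -2.69). The genome build was not given in the sources used here.

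Here, control spots and spots marked as outliers (0 to 18 per array) were dropped, log2 processed signals were centred on the array's 75th percentile, and spots of 1 sequence were averaged. A probe was tested if all arrays of at least 1 of the groups compared showed it well above background. For the tissues' difference in change, it had to meet this in both tissues. Changes were fitted with limma 3.58.1 (R 4.3.3), with the animal as a block within a tissue, the tissues' difference in change in 1 joint model, and liver against neutrophils on day 0 without a block. Two-sided p-values were adjusted over all probes tested (Benjamini-Hochberg, threshold 0.05), and errors are standard errors of the fit, with 3 animals in liver and 4 in neutrophils. The labels name the same animal on both days. Paired deviations from the group means correlated at 0.65, 0.31 and 0.61 in liver and at 0.61, 0.36, 0.03 and 0.24 in neutrophils. The script was tested on simulated data. The number of arrays limits the precision.

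The catalytic, activator and inhibitor genes, the 3 largest changes in each direction between days and the 5 largest called differences in each direction between tissues are given with every sample's value, with at most a few genes of each list. Others were chosen after their values were seen: PSMC3, PSMC5 and PSMD8, and the 5 proteasome probes outside the naming rule. The members, roles, pathway lists and marker lists were chosen with earlier results of these data known. The values of 1 gene of the interferon-gamma list are not reported here, and the list's counts and medians include it. Other genes were named through NCBI RefSeq (assembly ARS-UCD2.0), by accession, gene number, symbol or stated similarity to a human gene. Alternatives were other background corrections and normalizations, filters, position on the array, array weights, pairing, the day 7 arrays and each animal left out.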

Additional observations from a re-analysis of the deposited data

Results flagged for a closer look

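In groups of 4 neutrophil samples, 6 of 70 sets of values held 1 sample set apart from the other 3 by more than Dixon's limit. Chance sets apart about 1 in 20. On day 7, the sample of animal 34 was low for PSMA7, at a log2 level of -0.17 with the others at 0.62 to 0.78, and high for PSMC6, at 0.47 against -1.37 to -1.14. On the same day PSMC3 in animal 32 was high, at 2.31 against 0.48 to 0.74. On day 0, PSMB4 in animal 34 was high, at 4.36 against 4.04 to 4.08. Low on day 0 were PSMD10 in animal 26, at -3.25 against -2.4 to -2.31, and PSMD14 in animal 32, at 1.35 against 1.7 to 1.77.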

How the results depend on the processing

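In liver, 0 members were called under every alternative tried. Over all probes, the liver day calls were 435 in the main fit, 30 with the row trend removed and 0 of 6456 in the middle spot rows. Without the replicate block, 0 members were called in any comparison of days, while over all probes it was 210 for liver, 0 for neutrophils and 77 for the tissue difference. In neutrophils and for the difference, 0 members were called under every alternative but array weights, which gave 6 higher and 3 lower in neutrophils (4307 of all probes) and 2 and 2 for the difference, the latter from weights that had not converged. The number of members lower in liver on day 0 moved from 12 to 3 with the row trend removed, a step that moved the share of all probes called lower from 43.4% to 34.6% and their median from -0.12 to 0.47. It was 6 on the day 7 arrays, where 35.1% of all probes were called lower; the cause was not tested. It was 7 in the middle spot rows alone, which hold 7 of the 12. PSMB5, PSMB6, PSMB8, PSMB9 and PSMD6 stayed called in that comparison under every alternative in which they were fitted. In liver against neutrophils, removing the row trend turned PSMA4, PSMD12 and PSMD5, called lower in liver before, to 0.09, 0.11 and 0.23. PSMC6, PSMD13 and PSMA2, not called before, turned from -0.37, -0.15 and -0.1 to 0.71, 0.43 and 0.5. Among the catalytic, activator and inhibitor genes and those with the largest changes in each comparison, signs turned only for day changes that were not called. In liver, PSMB9, PSME1 and PSME2 were at -0.03, -0.05 and -0.04 with normexp and quantile normalization and at -0.04, -0.05 and -0.04 with quantile normalization. With the row trend removed PSMB6 was at 0.34, PSMB8 at -0.3, PSMB9 at -0.12, PSMC6 at -0.32 and PSMA7 at -0.56 (0.21 before), and with array weights PSMB9 was at -0.02. With 1 liver animal left out, PSMB6 ran from -0.06 to 0.02, PSMB9 from -0.14 to 0.1, PSMB10 from -0.27 to 0.04, PSME1 from -0.01 to 0.06, PSME2 from -0.01 to 0.08 and PSMF1 from -0.22 to 0.04. In neutrophils PSMB5 was at -0.05 with the row trend removed, and PSMB8, PSMB9 and PSMD3 were at -0.09, -0.1 and 0.21 with array weights. With 1 neutrophil animal left out, PSMB5 ran from -0.08 to 0.23, PSMB6 from -0.05 to 0.23, PSMB8 from -0.47 to 0.43, PSMB9 from -0.17 to 0.74, PSMB10 from -0.01 to 0.71 and PSMF1 from -1.63 to 0.41. The quantile normalizations moved the median of all probes in liver against neutrophils from -0.12 to -0.09 and -0.16. A dim probe such as PSMB1, and the 3 or 4 animals per tissue, limit what could be detected.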
